A study of Homo sapiens with 9 samples.

Results

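CXXC5 was followed beside 9 other genes of the DNA methylation machinery, namely CXXC1, TET1, TET2, TET3, DNMT1, DNMT3A, DNMT3B, UHRF1 and MBD4. These 10 genes were taken by name from the 60623 genes of the deposited RNA-seq tables, and each name matched in all 9 libraries. CXXC5 was put at the head of the group because of its change in these same libraries, so its values are given as a description. The cells were U937, an established human monocytic leukaemia line, in 3 stable derivatives that each grew from 1 cell clone. The U937-AE line carried the HA-tagged fusion AML1-ETO, the U937-EG line carried HA-tagged ETO2-GLIS2, and the U937-CTR line carried the empty vector. All 3 lines held a retroviral doxycycline-inducible construct and received 5 µg/ml doxycycline for 0, 12 or 48 h, so the drug itself was common to the induced libraries of every line. Each of the 9 conditions had 1 library, so no difference between them has a replicate check and no p-value is given. Levels are in FPKM, reads scaled by exon length and by the reads on genes in the library, and differences are on the log2(FPKM + 0.01) scale. A gene was tested in a comparison when its 2 libraries averaged 1 FPKM or more, and it was called when it was past 2-fold. In the fusion lines, a gene past 2-fold the same way in U937-CTR over the same hours was left out of the calls. Intervals are 95% intervals that cover the counting of reads only. TET1 apart, every member had between 320 and 7947 reads in each library, except CXXC5 with 46 reads in U937-AE at 48 h.

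Cytosines in CG pairs are methylated by DNMT1, which copies the pattern onto the new strand after replication with the help of UHRF1, and by DNMT3A and DNMT3B, which can place new marks. The TET enzymes oxidise 5-methylcytosine, and the glycosylase TDG starts the repair that returns an unmodified cytosine. MBD4 is a glycosylase that removes thymine opposite guanine at CG sites. CXXC5 and CXXC1 hold a CXXC zinc finger, a domain that binds unmethylated CG pairs. CXXC5 also acts as an inhibitor of Wnt signalling through Dishevelled and is induced by BMP signalling, and in blood cells the lesions of TET2 and DNMT3A are known from myeloid leukaemia.

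The libraries held between 15136401 and 18443642 reads on genes, as recovered from the deposited values. RUNX1T1, the gene whose sequence makes up the ETO portion of AML1-ETO, had 0.512, 22.2 and 28.7 FPKM at 0, 12 and 48 h in U937-AE and at most 0.0240 FPKM in the other 6 libraries. In U937-EG, GLIS2 had 2.39, 6.79 and 8.85 FPKM and CBFA2T3, which encodes ETO2, had 4.10, 11.4 and 12.6 FPKM. These reads cannot tell the endogenous transcripts from the fusion transcripts. The U937-AE library at 48 h stood apart from the others, with a median Spearman correlation of 0.843 with the other libraries against 0.941 to 0.961 for the rest, and every 48 h value of that line rests on it. The monocytic markers LYZ and SPI1 were abundant at 0 h in the 3 lines, while CD14 and CD68 were at or near 0 in all 9 libraries, and CD3D, CD3E, MS4A1, HBB, PF4 and KLRD1, which mark other blood cells, were listed at 0 throughout.

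Start regions of CXXC5, DNMT1 and UHRF1, called lower together in U937-AE, are shown because they hold letters that RUNX, GLIS or E2F proteins are known to read. RefSeq (GRCh38.p14) gives 27 windows of 300 bases for the 10 genes, each with 250 bases before and 50 after an annotated start. The searched letters were TGTGGT or TGCGGT for RUNX, TGGGGGGT for GLIS, and TTTCCCGC, TTTCGCGC, TTTGCCGC or TTTGGCGC for E2F, on both strands. The RUNX letters stood in 19.6% of all 35116 windows, the GLIS letters in 1.47% and the E2F letters in 3.31%. The letter sets share no motif with each other. Among the 10 genes, RUNX letters were found in 1 of 7 windows of CXXC5 and in 2 of 3 windows of TET1, GLIS letters in 1 window of CXXC5, and E2F letters in the single window of DNMT1 and in 2 of 3 windows of UHRF1. The single window of DNMT3B, the other member called lower, held none of these letters. That window (chr20:32779602-32779901) lies inside the gene, which begins at 32762385, so the beginning of DNMT3B was not searched. The sixth start of CXXC5, inside the gene, was the window with both RUNX and GLIS letters, a combination present in 102 windows (0.290%). Its sequence is chr5:139659305-139659604, plus strand, with the GLIS letters on the opposite strand first and the RUNX letters second in capitals.
CXXC5: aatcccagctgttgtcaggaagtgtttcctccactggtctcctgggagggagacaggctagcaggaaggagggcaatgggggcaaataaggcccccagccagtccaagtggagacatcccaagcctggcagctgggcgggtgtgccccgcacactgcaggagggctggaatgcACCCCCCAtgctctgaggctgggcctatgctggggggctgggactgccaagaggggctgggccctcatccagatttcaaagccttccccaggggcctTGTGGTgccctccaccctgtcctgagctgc
The DNMT1 window is chr19:10194904-10195203, minus strand, and the first UHRF1 window is chr19:4909251-4909550, plus strand, both with the E2F letters of the opposite strand in capitals.
DNMT1: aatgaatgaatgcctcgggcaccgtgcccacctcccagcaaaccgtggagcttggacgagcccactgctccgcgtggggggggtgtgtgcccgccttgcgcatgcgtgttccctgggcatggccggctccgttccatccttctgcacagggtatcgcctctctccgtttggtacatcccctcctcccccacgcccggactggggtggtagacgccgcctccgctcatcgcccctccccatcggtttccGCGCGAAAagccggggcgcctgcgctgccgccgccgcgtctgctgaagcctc
UHRF1: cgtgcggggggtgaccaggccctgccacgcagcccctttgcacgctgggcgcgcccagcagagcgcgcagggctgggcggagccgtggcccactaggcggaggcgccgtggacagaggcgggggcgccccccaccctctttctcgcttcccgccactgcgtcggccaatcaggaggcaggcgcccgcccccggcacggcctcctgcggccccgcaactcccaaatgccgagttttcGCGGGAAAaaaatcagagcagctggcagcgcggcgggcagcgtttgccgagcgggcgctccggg
The CXXC5 window holds 2 CG pairs, against 30 in the DNMT1 window, 36 in the UHRF1 window and a median of 14 over all windows. The 4 starts of CXXC5 nearest the beginning of the gene hold between 17 and 39 CG pairs. A match of letters is a description of the window and not a measured binding site.

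CXXC5 (ENSG00000171604, chr5:139647299-139683882 in GRCh38.p14) ran from 0.797 to 31.9 FPKM over the 9 libraries, a ratio of 40.1 that was the widest of the members detected in every library. In U937-CTR it had 29.9, 29.8 and 31.9 FPKM at 0, 12 and 48 h. In U937-AE it had 29.7, 11.3 and 0.797 FPKM, from 1870, 659 and 46 reads. In U937-EG it had 23.8, 16.7 and 12.5 FPKM, from 1668, 1134 and 773 reads. U937-AE thus began level with U937-CTR and was lower at each later time, and U937-EG began lower. In both fusion lines all induced libraries lay below all 3 U937-CTR libraries.

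In U937-AE, CXXC5 fell by 1.40 at 12 h and by 5.20 at 48 h on the log2 scale. The 95% counting interval at 48 h ran from -5.68 to -4.80 and the change was 36.9-fold. Only 66 (0.549%) of the 12030 genes tested had a lower value at 48 h, and 160 (1.36%) of 11775 at 12 h. On the log2 scale most of the difference came between 12 and 48 h, where the log2 fold change was -3.80. In FPKM the larger step came in the first 12 h, from 29.7 to 11.3, against 11.3 to 0.797 afterwards. For U937-EG, the log2 fold change was -0.51 at 12 h and -0.94 (-1.06 to -0.81) at 48 h, a 1.91-fold difference that lay just short of the 2-fold threshold. It passed the threshold after rescaling of the libraries by their median ratio (-1.10) and after subtraction of the U937-CTR change (-1.03). Before rescaling or subtraction, 2.91% of the 11696 genes tested in U937-EG had a lower value at 48 h. Against U937-CTR at 48 h, CXXC5 was past the threshold in both fusion lines, with log2 differences of -5.31 for AML1-ETO and -1.36 for ETO2-GLIS2. At 0 h the log2 difference of U937-EG from U937-CTR was already -0.33, and that of U937-AE was -0.01.

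Ordered by level, the AML1-ETO library at 48 h came lowest, with a log2 difference of -3.80 from the next one, AML1-ETO at 12 h. AML1-ETO at 12 h and ETO2-GLIS2 at 48 h were neighbours that did not differ beyond counting error, with a log2 difference of 0.15 and an interval from -0.01 to 0.30. The uninduced AML1-ETO library and the empty vector libraries at 12 and 0 h also lay within counting error of each other. The spread between cultures is not known. In RNA from a whole culture, fewer cells that express a gene and less RNA per cell cannot be told apart.

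CXXC1 (ENSG00000154832), the other CXXC protein of the group and the DNA-binding subunit of the SETD1 complexes that methylate histone H3 lysine 4, had nearly the same level everywhere. It had 22.1, 24.9 and 25.2 FPKM in U937-CTR, 22.8, 23.9 and 25.9 FPKM in U937-AE and 19.4, 21.8 and 21.1 FPKM in U937-EG. Its highest library was 1.33-fold above its lowest, the smallest range of the 9 genes tested. The ratio of CXXC5 to CXXC1, both in FPKM and so per length, went from 1.30 to 0.0308 in U937-AE and from 1.23 to 0.590 in U937-EG, against 1.35 and 1.27 in U937-CTR. Of the 8 partners of CXXC1 in the SETD1 complexes, among them ASH2L, RBBP5 and WDR5, 0 passed 2-fold in any line at 48 h. Of all tested genes, 9.88% were called lower and 12.6% higher with AML1-ETO, and fewer in the other lines.

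DNMT1 (ENSG00000130816), the maintenance methyltransferase, was the most abundant member in the uninduced cells. It had 49.9, 43.4 and 27.5 FPKM in U937-CTR, 38.3, 27.9 and 15.4 FPKM in U937-AE and 30.8, 32.4 and 20.5 FPKM in U937-EG. The 48 h library was the lowest of each line. From 0 to 48 h the log2 fold change was -0.86 in U937-CTR, -1.31 in U937-AE and -0.59 in U937-EG. Only the U937-AE value passed 2-fold, and after subtraction of U937-CTR it was -0.46.

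UHRF1 (ENSG00000276043), which binds hemimethylated DNA and recruits DNMT1, had 35.9, 36.8 and 19.7 FPKM in U937-CTR. It had 18.9, 13.6 and 4.09 FPKM in U937-AE and 24.0, 29.9 and 14.3 FPKM in U937-EG. The lines differed before induction, when the log2 difference of U937-AE from U937-CTR was -0.93, just short of 2-fold. At 48 h the log2 fold change was -0.87 in U937-CTR, -2.20 (-2.38 to -2.03) in U937-AE and -0.75 in U937-EG. Between 12 and 48 h UHRF1 also passed 2-fold in U937-EG, with -1.06, while U937-CTR had -0.90 over the same hours. The ratio of UHRF1 to DNMT1 in FPKM went from 0.492 to 0.265 in U937-AE, from 0.720 to 0.714 in U937-CTR and from 0.778 to 0.697 in U937-EG.

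DNMT3B (ENSG00000088305), a methyltransferase that places new marks, was called lower in U937-AE and had nearly the same level at 0 and 48 h in the other lines. It had 23.8, 27.2 and 22.6 FPKM in U937-CTR, 24.1, 17.6 and 8.86 FPKM in U937-AE and 17.5, 15.5 and 16.7 FPKM in U937-EG. U937-AE began level with U937-CTR, and its 48 h library was the lowest of the 9. From 0 to 48 h the log2 fold change was -1.45 (-1.58 to -1.31) in U937-AE and -0.07 in each of the other lines.

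DNMT3A (ENSG00000119772), the related enzyme, had its changes in the other direction. It had 5.20, 7.28 and 6.73 FPKM in U937-CTR, 5.43, 7.03 and 9.17 FPKM in U937-AE and 4.10, 5.25 and 7.77 FPKM in U937-EG. Both fusion lines had their highest value at 48 h, above all 3 empty vector libraries. The log2 fold changes at 48 h were 0.37, 0.75 and 0.92 for the empty vector, AML1-ETO and ETO2-GLIS2 lines, none past 2-fold.

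FPKM is scaled by length, so the 3 methyltransferases can be set beside each other within the limits of the exon lengths used. The lengths implied by the values were 9796 bases for DNMT1, 4630 for DNMT3B and 12020 for DNMT3A, against 15379, 6876 and 13781 in the GRCh37 annotation. Shares and ratios between genes depend on these lengths, and the change of a ratio over time does not. DNMT3A made up 6.60% of their summed FPKM in U937-CTR at 0 h and 11.8% at 48 h. In U937-AE its share went from 8.0% to 13.4% at 12 h and 27.4% at 48 h, and in U937-EG from 7.81% to 17.3%. DNMT3B had 4.44 times the FPKM of DNMT3A in the uninduced AML1-ETO line and 0.965 times at 48 h, a near equal level, where each of the other 8 libraries had a ratio of 2.15 or more. The sum of the 3 genes was 78.8 and 56.9 FPKM at 0 and 48 h in U937-CTR, 67.9 and 33.4 FPKM in U937-AE, and 52.5 and 45.0 FPKM in U937-EG.

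**Figure D1:**
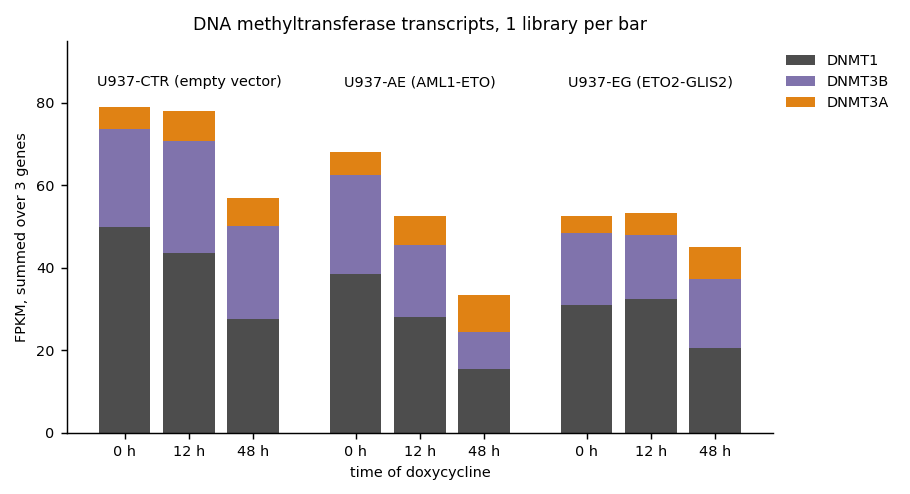
FPKM of DNMT1, DNMT3B and DNMT3A stacked in each of the 9 libraries, with 1 bar per library grouped by line and time of doxycycline. The AML1-ETO bar at 48 h is the shortest, at 33.4 FPKM, and DNMT3A takes its largest share there, 27.4%.

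TET1 (ENSG00000138336) was not detectable at this depth. It was listed at 0 in 7 libraries and had 1 read in U937-AE at 0 h and 2 reads in U937-EG at 12 h, counted with its annotated exon length. A count of 3 reads, the limit that a count of 0 allows, corresponds to between 0.0169 and 0.0206 FPKM, and no fold change was computed.

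TET3 (ENSG00000187605) was the more abundant of the detected TET enzymes. It had 15.4, 16.5 and 17.0 FPKM in U937-CTR, 15.6, 13.3 and 11.7 FPKM in U937-AE and 10.9, 11.9 and 14.7 FPKM in U937-EG. From 0 to 48 h the log2 fold change was 0.14 in U937-CTR, -0.42 (-0.50 to -0.34) in U937-AE and 0.43 (0.35 to 0.50) in U937-EG. After rescaling by the median ratio the U937-CTR value was -0.01, and the signs of the fusion lines held. The induced U937-EG libraries stayed below the empty vector libraries of the same times.

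TET2 (ENSG00000168769) had 2.05, 2.13 and 1.94 FPKM in U937-CTR, 2.11, 1.90 and 3.17 FPKM in U937-AE and 2.02, 2.21 and 2.28 FPKM in U937-EG. The other 8 libraries lay between 1.90 and 2.28 FPKM, and the U937-AE library at 48 h stood above them with a log2 fold change of 0.59 (0.43 to 0.75). TET2 made up 11.9% of the summed TET FPKM in U937-AE at 0 h and 21.3% at 48 h, against 11.8% and 10.3% in U937-CTR. Neither TET2 nor TET3 passed 2-fold in any line.

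MBD4 (ENSG00000129071), a glycosylase that removes thymine opposite guanine at CG sites, had 13.7, 17.0 and 17.1 FPKM in U937-CTR. It had 15.1, 14.0 and 12.3 FPKM in U937-AE and 16.0, 18.0 and 17.6 FPKM in U937-EG. The log2 fold changes at 48 h were 0.32, -0.30 and 0.14, so U937-AE was the one with a lower level, but after rescaling by the median ratio the U937-EG value was -0.03. The library kit does not mark strand, and 8.32% of the exon bases of MBD4 are also covered by exons of a gene on the opposite strand, whose reads cannot be told apart there.

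Across the group, 4 of 9 tested members were lower past 2-fold at 48 h in U937-AE, namely CXXC5, UHRF1, DNMT3B and DNMT1, where 9.88% of all 12030 tested genes were called lower and 12.6% higher. Since the group was assembled with these changes known, the count is a description. In U937-EG, 0 of 9 members passed at 48 h, where 1.33% of all tested genes were called lower and 6.19% higher, and in U937-CTR 0 of 9 passed, against 2.99% lower and 8% higher. From 0 to 12 h CXXC5 was called lower in U937-AE, where 1.72% of genes were, and 0 of 9 members were called lower in U937-EG (0.858% of genes) or U937-CTR (1.88%). No member was called higher at 48 h in any line. Between 12 and 48 h, CXXC5 and UHRF1 passed in U937-AE, where 9.46% of genes were called lower, UHRF1 passed in U937-EG, where 1.54% were, and 0 of 9 passed in U937-CTR, where 3.04% were. Over the 9 members, the median log2 fold change at 48 h was 0.10, -0.42 and 0.12 in the empty vector, AML1-ETO and ETO2-GLIS2 lines, and that of all tested genes was 0.16, 0.22 and 0.16. DNMT1 and UHRF1 lay close to the limit in U937-CTR, at -0.86 and -0.87, and a member past 2-fold there would have been left out of the fusion line counts. After rescaling by the median ratio both passed 2-fold in U937-CTR, at -1.01 and -1.02, and 2 members, CXXC5 and DNMT3B, remained called in U937-AE. The members nearest to the limit from outside were CXXC5 at -0.94 and DNMT3A at 0.92, both in U937-EG, and the nearest from inside was DNMT1 at -1.31 in U937-AE.

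Set directly against U937-CTR at the same time, 0 of 9 members passed 2-fold before induction in either fusion line, where 2.24% of genes were lower and 2.67% higher in U937-AE, and 2.99% lower and 3.42% higher in U937-EG. At 12 h, CXXC5 at -1.40 and UHRF1 at -1.44 passed in U937-AE, where 4.37% of genes were called lower, and 0 of 9 were called lower in U937-EG, where 4.36% were. At 48 h, CXXC5, UHRF1 at -2.26 and DNMT3B at -1.35 passed with AML1-ETO, where 11.7% were called lower, and CXXC5 alone passed with ETO2-GLIS2, where 2.53% were called lower. The fusion line comparisons share the empty vector libraries. Between the fusion lines at 48 h, the log2 difference of U937-AE from U937-EG was -3.95 for CXXC5 and -1.80 for UHRF1, where 11.6% of genes were called lower.

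**Figure D2:**
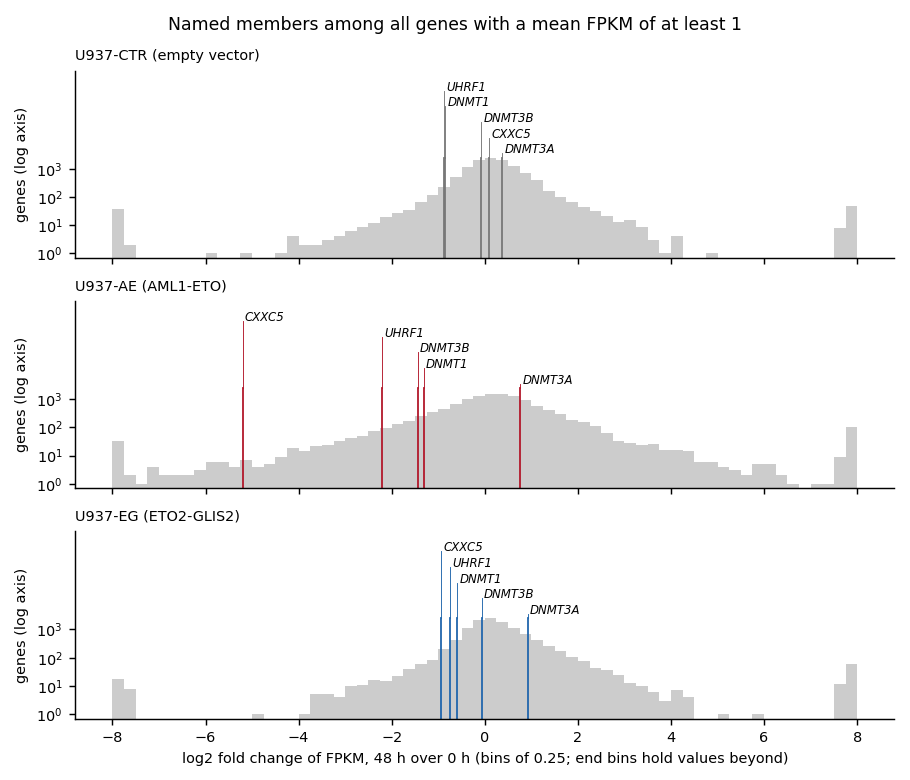
Histogram of the log2 fold change from 0 to 48 h of every tested gene (log vertical axis), with lines at 5 members, 1 panel per line. CXXC5 sits in the far left tail of the AML1-ETO panel, at the left shoulder of the ETO2-GLIS2 panel and near the centre of the empty vector panel.

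The genes that surround the members were described from lists that were chosen with earlier results of these data known. Of all tested genes at 48 h, 9.88% were called lower and 12.6% higher with AML1-ETO. The shares were 1.33% and 6.19% with ETO2-GLIS2 and 2.99% and 8% with the empty vector. At such shares a count of 0 in a short list says little about that list. The 8 partners of maintenance methylation include HELLS, its activator CDCA7, the sliding clamp PCNA and the ligase LIG1. In U937-AE at 48 h, 4 of these 8 were lower past 2-fold, with log2 fold changes of -1.98 for PCNA, -1.74 for CDCA7, -1.51 for LIG1 and -1.33 for HELLS, and the list median was -1.08. In the ETO2-GLIS2 and empty vector lines 0 of 8 passed, with medians of -0.43 and -0.32.

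The 12 replication genes, which are transcribed around S phase as DNMT1 and UHRF1 are, were lower than at 0 h in 12 of 12 cases in U937-AE and U937-EG at 48 h and in 11 of 12 in U937-CTR, where RRM2 had 0.08. In U937-AE at 48 h, 11 of 12 were called lower, with MCM5 at -2.37, MCM4 at -2.33, CDC6 at -2.03, MCM7 at -1.96, MCM6 at -1.70 and CDC45 at -1.66. In U937-EG 1 of 12 passed, MCM5 at -1.06. For U937-AE, MCM2 at -2.15 was left out because U937-CTR passed 2-fold as well. The list medians were -1.68 with AML1-ETO, -0.73 with ETO2-GLIS2 and -0.66 with the empty vector, beside -2.20, -0.75 and -0.87 for UHRF1 and -1.31, -0.59 and -0.86 for DNMT1. At 12 h the list medians were -0.09, 0.39 and 0.04 in the same order, when UHRF1 had -0.47, 0.32 and 0.03. DNMT3B was at -0.07 in U937-CTR and U937-EG, where the list medians were -0.66 and -0.73. What part the replication genes have in the changes of DNMT1 and UHRF1 was not tested.

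Among the other CXXC proteins, KMT2A rose by 1.16 in U937-AE (-0.11 in U937-CTR), the single call of 6 tested, and 0 of 6 passed with ETO2-GLIS2. KDM2B, which targets a Polycomb complex to CG islands, had -0.91 in U937-AE and -0.63 in U937-CTR. CXXC4, the closest relative of CXXC5, was listed at 0 in all libraries. DNMT3L and TRDMT1, the other members of the methyltransferase family looked at, averaged under 1 FPKM and were not tested. Of the 7 other tested readers of methylated or CG-rich DNA, among them MBD2 and UHRF2, 0 passed 2-fold in any line. UHRF2, the paralogue of UHRF1, had 0.26, 0.10 and 0.35 in the empty vector, AML1-ETO and ETO2-GLIS2 lines.

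The 12 genes listed for base excision after TET action or deamination, with GADD45A and GADD45B among them, were mixed. In U937-AE POLB rose by 1.47, NEIL1 by 1.34, SMUG1 by 1.04 and GADD45A by 1.03, and PARP1 fell by 1.36. Over the same hours U937-CTR had 0.15 for POLB, 0.83 for NEIL1, 0.98 for SMUG1, -0.74 for GADD45A and -0.60 for PARP1. In U937-EG NEIL1 rose by 1.56, the only call. UNG, the uracil glycosylase, had -1.65 in U937-AE, where it was left out because it fell by 1.02 in U937-CTR. In U937-EG it had -0.99, just short of 2-fold. TDG, the glycosylase that excises oxidised methylcytosine, had 0.08, 0.15 and 0.01 in the empty vector, AML1-ETO and ETO2-GLIS2 lines.

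Of the 8 tested genes that supply cofactors to the methyltransferases and TET enzymes or partner them, OGT, the GlcNAc transferase that binds TET proteins, rose by 1.47 with AML1-ETO and 1.49 with ETO2-GLIS2, and had 0.88 with the empty vector. IDH2, a mitochondrial source of 2-oxoglutarate, fell by 2.21 with AML1-ETO and had -0.76 with ETO2-GLIS2 and -0.63 with the empty vector. MAT2A, which makes the methyl donor S-adenosylmethionine, rose by 1.12 with ETO2-GLIS2 and had 0.26 with AML1-ETO and 0.67 with the empty vector.

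Of the 8 tested genes of the Wnt and BMP pathways, in which CXXC5 is known to act, 3 were lower past 2-fold in U937-AE, ID2 at -1.83, SMAD7 at -1.60 and ID1 at -1.06. These are targets of BMP or TGF-beta signalling, and had -0.02, 0.59 and 0.19 in U937-CTR. ID1 began at 9.34 FPKM in U937-AE against 5.04 FPKM in U937-CTR, and had 4.48 and 5.74 FPKM at 48 h. The list did not fall as a whole in U937-AE, where 3 of 8 were above 0 and 5 below. There, SMAD6 went from 3.61 to 4.31 FPKM and CTNNB1 from 24.4 to 26.5 FPKM. The Dishevelled genes DVL1, DVL2 and DVL3, whose proteins CXXC5 binds, had 0.34, -0.33 and -0.11 in U937-AE. In U937-EG 0 of 8 passed. BMP4 and WT1 were listed at 0 in all libraries.

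Among the markers of the cells themselves, LYZ fell by 4.43 and SPI1, which encodes the monocytic factor PU.1, by 2.96 in U937-AE, beside the 5.20 of CXXC5. The other tested markers had -0.48 for PTPRC, 0.15 for CD33 and 0.46 for FCGR1A there, and the list median was -0.48. In U937-CTR LYZ had -0.45 and SPI1 0.54. In U937-EG LYZ fell by 1.95, CD33 rose by 1.01 and SPI1, FCGR1A and PTPRC had -0.12, 0.04 and 0.45. ITGAM, which encodes the differentiation marker CD11b, went from 2.23 to 11.5 FPKM in U937-EG (2.36), the largest change of the list, and was left out of the calls because U937-CTR passed 2-fold as well (1.24). Of the 10 monocytic markers 5 were tested in U937-AE and 6 in U937-EG. The part of a change in cell state in the level of CXXC5 was not tested.

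The genes whose profile over the 9 libraries was most like that of CXXC5, by Pearson correlation of log2(FPKM + 0.01) among the 11820 genes that averaged 1 FPKM or more, were SELPLG, ZNF398, FMNL1, PLK4 and WDFY4. SELPLG, the gene of the P-selectin ligand of leukocytes, had r = 0.997. It had 29.8, 33.0 and 31.8 FPKM in U937-CTR, 25.2, 6.81 and 0.0527 FPKM in U937-AE and 24.1, 15.1 and 8.14 FPKM in U937-EG. The others had r = 0.991, 0.989, 0.987 and 0.985 in the order named. Of the members, DNMT3B (r = 0.926) and UHRF1 (r = 0.906) were most like CXXC5, followed by DNMT1 at 0.814, while TET2 had -0.888 and DNMT3A -0.632. By this correlation DNMT3B, UHRF1 and DNMT1 ranked 324, 471 and 1092, so many genes outside the group were more like CXXC5. The 9 libraries are not independent, since they come from 3 lines, and the AML1-ETO library at 48 h is an extreme point of each of these profiles.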

How the data were processed

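RNA was extracted with TRIzol, made into TruSeq RNA v2 libraries and sequenced on a NovaSeq instrument. Alignment to hg38 was done by the authors with HISAT2 (2.0.5), followed by SAMtools (1.7) and by counting with HTSeq (0.9.1) at default settings, and the deposited values are FPKM, reads per exon length and library total. The submitters' processing notes also list DESeq2 (1.22.2). The annotation version is not given in the sources used here.

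Reads were recovered from the FPKM values by requiring whole exon lengths and reads, which held for 23811 (99.7%) of 23889 genes above 0 in at least 3 libraries, within 0.01 reads plus 8e-06 per read. The TET1 reads use the annotated exon length, from a GRCh37 annotation that was also used for exon overlap and for no coordinates. Intervals are 95% Clopper-Pearson intervals on ratios of reads, and they and the floor of 3 reads cover counting error only, because the reads carry no molecular identifiers. Differences are log2(FPKM + 0.01), which understates the change of low genes. A gene was tested when the mean FPKM of the 2 libraries compared was at least 1, and called past 2-fold. In fusion lines, genes past 2-fold the same way in U937-CTR over the same hours were left out. Calling was tested on simulated data. Python (3.11.15), numpy (2.4.6), pandas (2.3.3), scipy (1.17.1), numba (0.67.0) and matplotlib (3.10.9) were used.

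Members and lists were chosen with earlier results of these data known. Named were the 10 members, up to 6 genes per list past 2-fold in a fusion line at 48 h, the 5 genes most like CXXC5, and RUNX1T1, GLIS2 and CBFA2T3 as a check of the labels. Other list genes named, chosen after their values were seen, are given with values for contrast. Start windows and coordinates are from RefSeq (GRCh38.p14), matched by symbol for all 10 members. Alternatives covered time points, pseudocount, scaling, low-value filter, fold threshold and the handling of U937-CTR.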

Additional observations from a re-analysis of the deposited data

Results flagged for a closer look

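TET3 moved in opposite directions in the fusion lines, lower than at 0 h in both induced AML1-ETO libraries (-0.24 and -0.42 at 12 and 48 h, log2) and higher in both ETO2-GLIS2 libraries (0.12 and 0.43). The difference of the changes at 48 h was -0.84, it kept its opposite signs after rescaling by the median ratio, and it was not tested. The rescaled ETO2-GLIS2 values were 0.0008 at 12 h and 0.26 at 48 h, so almost no rise was left at 12 h. U937-EG also began lower, at 10.9 FPKM against 15.4 in U937-CTR and 15.6 in U937-AE. The difference of AML1-ETO from U937-CTR (0.10 and 0.14) for TET3 was -0.56 at 48 h. After rescaling the empty vector values were -0.05 and -0.01, so the AML1-ETO and empty vector lines were then both below 0. That difference was not tested either.

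MBD4 was likewise lower in both induced AML1-ETO libraries (-0.11 and -0.30) and higher in both induced libraries of the other lines. The difference of the changes at 48 h was -0.62 against U937-CTR, with opposite signs also after rescaling, and -0.44 against U937-EG, whose rescaled 48 h value was -0.03. Neither difference was tested, and all 4 values rest on 1 library per condition.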

How the results depend on the processing

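The fall of CXXC5 in U937-AE kept its direction and stayed past 2-fold under every alternative run. It was -1.40 for 12 h against 0 h, -3.80 for 48 h against 12 h and -4.10 with a pseudocount of 1 FPKM, and between -5.37 and -5.06 in the others. The 4 members called lower with AML1-ETO became 1 for 12 h against 0 h, 2 for 48 h against 12 h, 2 after rescaling by the median ratio, 2 at a threshold of 1.5-fold, and 3 with the empty vector change subtracted or its 48 h library as reference. After rescaling and at 1.5-fold, DNMT1 and UHRF1 were left out because U937-CTR then passed the threshold too (2 members lower in that line under each). At 1.5-fold, 2 members were higher with AML1-ETO and 1 with ETO2-GLIS2, none of them at 2-fold. The shares of all genes called at 1.5-fold, after rescaling or after subtraction are not given. The member counts under those settings therefore have no background beside them. With ETO2-GLIS2, 1 member instead of 0 was lower for 48 h against 12 h (UHRF1), and 1 (CXXC5) after rescaling, at 1.5-fold, with the empty vector change subtracted and with its 48 h library as reference. Of 164 alternative values of single members, 77 stayed within the counting interval and 0 of the called values reversed. No paired analysis was possible because each condition had 1 library, and no library could be left out without losing the comparison. Depth limits TET1, which had at most 2 reads in any library.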
